A study of Mus musculus with 16 samples.

Results

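The livers of female and male knockout mice were compared with each other, 8 of the 16 livers in the series. The 8 were taken by library name from the deposited count table: D1, D2, D4 and D5 are replicates 1 to 4 of the female knockout group, and B1, B2, B3 and B4 are replicates 1 to 4 of the male knockout group. All the mice were on the C57BL/6J background, carried a floxed Gcgr gene, which encodes the glucagon receptor, and were 20 to 22 months old. Knockout mice (LKO) also carried Cre under the Albumin promoter. That promoter is active in hepatocytes, and whether the other cells of the liver keep the receptor was not tested. The 4 male and 4 female CRE- mice lack Cre, and their livers give the same comparison with the receptor present. Each library comes from a piece of liver, so it mixes hepatocytes with other cells. Only genes on chromosomes 1 to 19 were counted, because the sexes differ in their X and Y chromosomes.

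Males and females of the mouse express many liver genes at different levels. Growth hormone reaches the male liver in pulses and the female liver more steadily, and through its receptor, JAK2 and STAT5 it sets the levels of sex-biased P450 enzymes, sulfotransferases, transporters and urinary proteins. Glucagon acts on hepatocytes through a receptor that raises cyclic AMP, promoting glucose output and amino acid breakdown.

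Reads counted on genes were 33351783, 47541412, 40043146 and 36908313 in the male LKO libraries and 35086109, 39611392, 48265539 and 33268424 in the female LKO libraries, each in the order of replicates 1 to 4, as are all per-sample values. Reads on the mitochondrial genome made up 4.17, 5.06, 5.61 and 5.43% in the males and 4.10, 4.39, 3.96 and 2.83% in the females. Female replicate 4 had the lowest share, and the sexes overlapped through male replicate 1 and female replicate 2. All levels are in CPM, read counts scaled to library size by TMM. Differences are log2 fold changes (log2 change), female minus male, and ± gives a standard error (SE, n = 4 females and 4 males). It is the size of the log2 change divided by the square root of F from the test named next. The spread in that test is estimated from all 16 libraries. A gene is called when edgeR's quasi-likelihood F test gives it an adjusted p under 0.05. Higher and lower mean higher and lower in females.

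The sex labels were checked against marker genes. Xist, the RNA that silences an X chromosome, stood at 0.0514, 0.0416, 0.0497 and 0 in males and 269, 273, 359.9 and 253 in females. Ddx3y, a gene of the Y chromosome, stood at 58.0, 51.1, 54.8 and 45.5 in males and 0, 0, 0 and 0 in females, at least 717-fold higher in males when the females are set to a floor of 3 counts per library. Every LKO library thus carried the sex markers of its label. Gcgr, the deleted gene, stood at 117, 136, 129.9 and 160.3 in males and 48.8, 132, 119 and 93.6 in females, and reads from its undeleted exons are part of that count. Female replicate 1 was lowest, the sexes overlapped, and the log2 fold change of -0.47 ± 0.25 (adjusted p = 0.334) did not pass the test. Gcgr was compared here between the LKO sexes only, which does not check the knockout label. Hepatocyte markers were abundant in every library: Alb, the gene of serum albumin, stood at 48295, 53911, 69102 and 55657 in males and 41687, 71962, 69446 and 53284 in females. None of the 10 hepatocyte markers passed edgeR's test (median log2 fold change -0.05, CRE- 0.32), 3 had an unadjusted p under 0.05, DESeq2 called 1 and limma-voom 1, and edgeR 2 without female replicate 2.

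Some LKO libraries stood apart from the rest of their group. In male replicate 1 (library B1), many genes of the male programme were near the female level. Of the 390 autosomal genes called without it, 388 had log2 CPM values to compare. The value of male replicate 1 was nearer the female than the male mean in 257 of the 388, or 66.2%. Without female replicate 2, 652 genes were called and 650 had log2 CPM values. Female replicate 2 was nearer the male mean in 438 of the 650, or 67.4%. For the other 6 LKO libraries this share ran from 0% in male replicate 2 to 34.0% in female replicate 3. Each share covers only the genes called without that library, 44 for male replicate 2 and 197 for female replicate 3. All 44 of male replicate 2 and all 49 of male replicate 4 were also called with the library included. The shares therefore rest on different genes and are not directly comparable. Female replicate 1 differed by over 1 log2 unit from the mean of the other 3 females in 29.3% of autosomal genes tested, against 7.27% to 18.5% for the other LKO libraries within their own sex.

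Of 16212 autosomal genes tested, 184 differed between female and male LKO livers (1.13%), 85 of them higher (0.524%) and 99 lower (0.611%). The higher genes included P450 enzymes of the female programme, acute-phase and neutrophil genes, and the lower genes included P450 enzymes, urinary proteins, transporters and esterases. An unadjusted p under 0.05 was found for 2896 of the 16212 (17.9%), the share to hold list counts of the LKO comparison against. Without male replicate 1 the test called 390 of 16526 genes (2.36%), 197 higher (1.19%) and 193 lower (1.17%). Of the genes called with all libraries, 72 of the 85 higher and 97 of the 99 lower were called without it as well. Over all autosomal genes tested the median log2 fold change was 0.00, 0.02 without male replicate 1 and -0.01 in CRE- livers, and list medians in brackets below stand beside the CRE- value. Values of the 4 females and the 4 males did not overlap in 1304 autosomal genes (8.04%), 642 higher (3.96%) and 662 lower (4.08%), among them 81 of the 85 higher and 69 of the 99 lower genes called. Without male replicate 1 the groups of 4 and 3 were apart in 3142 (19.4%), 1627 higher (10%) and 1515 lower (9.34%), and fewer livers separate more easily. In CRE- livers 1214 genes did not overlap (7.49%), 697 higher (4.3%) and 517 lower (3.19%).

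The number of calls depended on single livers. It was 44 without male replicate 2, 68 without male replicate 3, 49 without male replicate 4, 100 without female replicate 1, 652 without female replicate 2, 197 without female replicate 3 and 75 without female replicate 4. Leaving out male CRE- replicate 1, which shares the estimate of spread, gave 119. Of the 184 genes, 43 were called whichever LKO library was left out (in every leave-out). DESeq2 called 1040 genes, limma-voom 928 and edgeR on the 8 LKO libraries alone 11. The same 4 against 4 comparison in CRE- livers called 147 genes (0.907%), 66 higher (0.407%) and 81 lower (0.5%). That count was 62 without male CRE- replicate 1, 68 without male CRE- replicate 3, and 76, 65, 84 and 65 without female CRE- replicates 1 to 4.

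The LKO and CRE- comparisons share no library. Among the genes higher in LKO females, 18 were also higher in CRE- females, 21.2% of the LKO list and 27.3% of the CRE- list. Among the lower genes 38 were shared, 38.4% of the LKO list and 46.9% of the CRE- list. No gene was called in opposite directions. Median log2 fold changes of the 85 higher genes were 2.25 in LKO and 0.33 in CRE- livers, with the same sign in 51. For the 99 lower genes the medians were -3.05 and -1.48, with the same sign in 93. Choosing genes by their calls favours the comparison that called them, and the reverse choice did too: CRE- calls had medians of 2.45 in CRE- and 1.45 in LKO livers (66 higher, 64 of the same sign), and -2.86 and -1.63 (81 lower, 73).

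**Figure D1:**
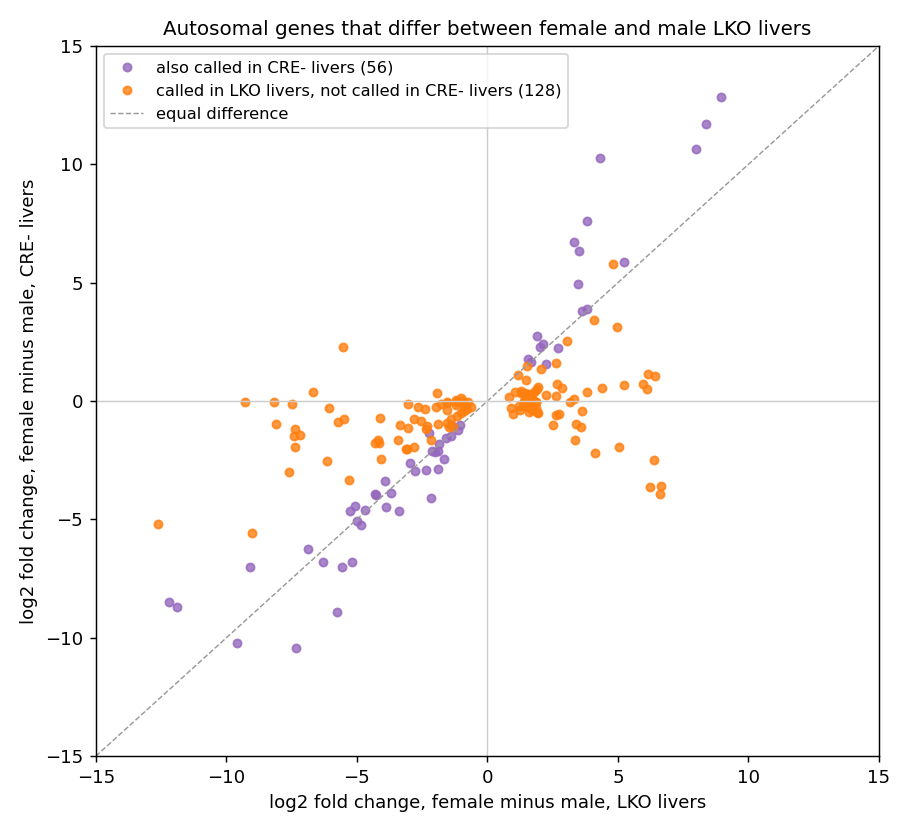
Each point is 1 of the 184 autosomal genes called between female and male LKO livers, placed by its log2 fold change (female minus male) in LKO livers (horizontal) and in CRE- livers (vertical). Purple marks the 56 genes also called in CRE- livers and orange the other 128, and the dashed line marks an equal difference.

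The test of whether the sex difference itself differed between LKO and CRE- livers called 0 of 16212 genes with edgeR (0%). At an unadjusted p under 0.05 it gave 2602 genes (16.05%), the share to hold interaction counts of lists against. DESeq2 called 361 genes and limma-voom 29. Without male replicate 1 it called 14 genes (0.0847%), without female replicates 2 or 3 it called 10 and 14, and without female replicate 4 or male CRE- replicate 2 it called 2. A gene called in LKO and not in CRE- livers is therefore not shown to be particular to the knockout. The adjusted p of this test is given as the interaction adjusted p, beside some of these genes and some others. A gene printed without it was not thereby called in CRE- livers.

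Some P450 genes of the female programme were higher in LKO females. The 10 leading genes in each direction were taken among those without overlap, so that their groups lie apart follows from the choice. Genes named below for the smallest p of a list, called or not, were also picked in a way that favours groups lying apart. Over all autosomal genes tested, the sexes did not overlap in 8.04%. Cyp3a41b stood at 0, 0.0416, 0.0248 and 0.0270 in males and 21.2, 6.76, 1.90 and 23.8 in females, and 4 reads in all were counted in the males. Pooled reads over pooled library sizes gave a female to male ratio of 495, with a 95% counting interval of 193 to 1817. Its near-identical neighbour Cyp3a41a stood at 0.772, 0.354, 0.224 and 0.621 in males and 224, 62.5, 8.60 and 205 in females. Female replicate 3 was lowest among the females for both genes, and reads that fit both genes were not counted. Cyp3a16 stood at 6.97, 4.997, 3.68 and 7.81 in males and 66.3, 37.6, 23.9 and 140.5 in females, a log2 change of 3.52 ± 0.45 (adjusted p = 7.11e-04). Cyp3a44 stood at 5.22, 3.39, 2.91 and 4.30 in males and 79.9, 16.4, 13.9 and 46.6 in females, a log2 change of 3.31 ± 0.49 (adjusted p = 0.00344). These P450s hydroxylate steroids and drugs. In CRE- females Cyp3a41a stood at 682 to 1011 CPM, Cyp3a16 at 158 to 333 CPM and Cyp3a44 at 191 to 397 CPM. The log2 sex difference in CRE- livers was 6.32 for Cyp3a16 and 6.71 for Cyp3a44, and the interaction adjusted p was 0.135 and 0.122.

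A1bg, a plasma glycoprotein, stood at 0.720, 0.0416, 0.199 and 0.162 in males and 90.3, 260.4, 11.4 and 10.7 in females, a log2 change of 8.39 ± 1.37 (adjusted p = 0.00687). Female replicates 1 and 2 were highest, male replicate 1 was the highest male, and CRE- females held 935 to 4711 CPM. Prom1, a membrane glycoprotein, stood at 4.58, 0.916, 2.88 and 1.08 in males and 26.3, 26.0, 9.93 and 41.7 in females, a log2 change of 3.46 ± 0.57 (adjusted p = 0.00687) and of 4.96 in CRE- livers (adjusted p = 3.19e-04). Of the 35 genes on the list of female-biased liver genes, 9 were called higher and 0 lower, with a median log2 fold change of 2.12, or 2.10 with genes near 0 counts set at their bound. Without male replicate 1, 20 were called and the median was 3.47. In CRE- livers 18 were called with a median of 4.64. The summed level of the list was 2039.5, 606, 505 and 663 in males and 2373, 6004, 3837 and 3125 in females, so male replicate 1 stood between the other males and the females. With 1 LKO library left out, the calls ran from 6 without male replicate 2 to 20 without male replicate 1. Cyp3a41b, Cyp3a41a, Cyp3a16, Cyp3a44, A1bg and Prom1 kept their calls in every leave-out.

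Other genes led the higher list without belonging to the female-biased list. Pde4b, which degrades cyclic AMP, stood at 5.17, 5.25, 5.32 and 4.75 in males and 16.6, 13.1, 8.62 and 25.3 in females, a log2 change of 1.63 ± 0.27 (adjusted p = 0.00781). The 4 males were nearly alike, while CRE- livers held 18.6 to 23.8 CPM in males and 14.7 to 28.6 CPM in females (interaction adjusted p = 0.135). Tafa2, a secreted chemokine-like protein, stood at 1.75, 0.708, 1.09 and 0.810 in males and 4.18, 10.8, 3.73 and 9.46 in females, a log2 change of 2.69 ± 0.43 (adjusted p = 0.00602). Prelid2, of the PRELI domain family, stood at 0.772, 0.833, 0.596 and 0.864 in males and 2.06, 4.89, 2.14 and 5.50 in females, a log2 change of 2.24 ± 0.33 (adjusted p = 0.0032). Sgsm1, a modulator of small G proteins, stood at 0.669, 0.958, 0.795 and 1.03 in males and 5.06, 3.44, 3.69 and 1.74 in females, a log2 change of 2.01 ± 0.34 (adjusted p = 0.00859). Tafa2, Prelid2 and Sgsm1 were also called higher in CRE- females, by 2.26, 1.58 and 2.27 log2 units. Pde4b, Tafa2, Prelid2 and Sgsm1 kept their calls in every leave-out.

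Some P450 genes of the male programme were lower in LKO females by wide margins, and so was Cyp2u1, which is not on the male-biased list. Cyp2d9, a testosterone hydroxylase, stood at 518, 1430.4, 1356 and 1517 in males and 24.6, 48.1, 73.0 and 22.996 in females, a log2 change of -4.84 ± 0.50 (adjusted p = 6.05e-05). Cyp4a12a, which makes hydroxylated arachidonic acid, stood at 3.47, 154, 161 and 206 in males and 0.0503, 0.324, 0.219 and 0.0579 in females, a log2 change of -9.58 ± 1.01 (adjusted p = 6.92e-05), and reads shared with its near copy Cyp4a12b were not counted. In male replicate 1 Cyp2d9 was below the other males and Cyp4a12a far below them. Without that liver the log2 fold changes were -5.07 and -9.97. Cyp2u1, a fatty acid hydroxylase, stood at 1.39, 10.1, 11.8 and 8.27 in males and 0.604, 0.623, 0.366 and 0.492 in females, a log2 change of -3.92 ± 0.52 (adjusted p = 0.00114). Cyp7b1, an oxysterol hydroxylase of bile acid synthesis, stood at 90.3, 181, 172 and 179 in males and 26.4, 43.0, 39.7 and 22.9 in females, a log2 change of -2.24 ± 0.26 (adjusted p = 2.38e-04). Of the 28 male-biased liver genes tested, 0 were higher and 14 lower (median log2 fold change -2.80), and without male replicate 1 18 were lower (median -3.15). In CRE- livers 11 were lower (median -2.45). Summed levels of the list were 3583, 24403, 33148 and 26462 in males and 1263, 2690.3, 2587 and 1692 in females. That puts male replicate 1 far below the other males and just above the females. With 1 LKO library left out, the calls ran from 9 without male replicate 2 to 18 without male replicate 1. Cyp2d9, Cyp4a12a, Cyp2u1 and Cyp7b1 kept their calls in every leave-out.

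Other genes that led the lower list have varied roles. Zfp979 and Zfp992 encode zinc finger proteins. Zfp979 stood at 4.63, 12.9, 7.9998 and 13.9 in males and 0.201, 0.399, 0.293 and 0.347 in females, a log2 change of -4.98 ± 0.45 (adjusted p = 1.28e-05) and of -5.07 in CRE- livers (adjusted p = 8.66e-06). Zfp992 stood at 4.53, 20.1, 13.8 and 22.9 in males and 1.86, 0.424, 0.439 and 1.42 in females, a log2 change of -3.90 ± 0.56 (adjusted p = 0.00242) and of -4.49 in CRE- livers (adjusted p = 5.48e-04). Male replicate 1 was the lowest male for both. Nat8f5, an acetyltransferase, stood at 0.823, 6.16, 3.23 and 5.19 in males and 0, 0.199, 0.0732 and 0.145 in females, a log2 change of -5.20 ± 0.70 (adjusted p = 0.00124) and of -6.81 in CRE- livers (adjusted p = 1.09e-04). Il1rap, the shared co-receptor for interleukin 1 and interleukin 33, stood at 88.2, 134, 130.5 and 138 in males and 37.2, 47.1, 49.9 and 33.1 in females, a log2 change of -1.55 ± 0.19 (adjusted p = 3.83e-04). For Il1rap, CRE- livers held 104 to 136 CPM in males and 78.3 to 109.9 CPM in females, a log2 difference of -0.37 (adjusted p = 0.426), with an interaction adjusted p of 0.135. Zfp979, Zfp992, Nat8f5 and Il1rap kept their calls in every leave-out.

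Most major urinary proteins, small pheromone carriers that the liver secretes, were called lower in LKO females. Mup20, which encodes a male pheromone, stood at 233, 10149, 18454 and 12301 in males and 31.5, 106, 199.8 and 15.9 in females, a log2 change of -6.86 ± 1.06 (adjusted p = 0.00485). Mup21 stood at 6.56, 201, 231 and 225 in males and 1.31, 4.71, 9.71 and 0.810 in females, a log2 change of -5.31 ± 0.89 (adjusted p = 0.00781). Male replicate 1 held far less of either gene than the other 3 males and lay within or just above the range of the females. Mup11 stood at 0, 615, 126 and 609.8 in males and 0, 0, 0.165 and 0 in females, so that male replicate 1 and 3 females had 0 reads. Mup14 stood at 0, 22.4, 7.11 and 24.5 in males and 0, 0, 0 and 0 in females, and the male mean was at least 185-fold above the floor of 3 counts per library in the females. The members are nearly identical and reads that fit several of them were not counted, so the level of each is uncertain. Of 20 members tested, 17 were lower (median log2 fold change -7.28), and without male replicate 1 20 were lower (median -7.67). With all 8 livers the sexes did not overlap in 1 of the 20. In CRE- livers 3 were lower (median -1.44), and the interaction had an unadjusted p under 0.05 in 14. The summed level of the 22 members was 440.2, 19048, 25635 and 21793 in males and 126, 598, 945 and 20.3 in females, and Mup20 made up 60.5% of it. CRE- males had a summed level of 6979 ± 983 CPM and CRE- females of 960 ± 489 CPM (SD, n = 4 each). With 1 LKO library left out the calls ran from 6 without male replicate 2 to 20 without male replicate 1, and limma-voom called 3. Mup20, Mup21, Mup11 and Mup14 kept their calls in every leave-out.

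**Figure D2:**
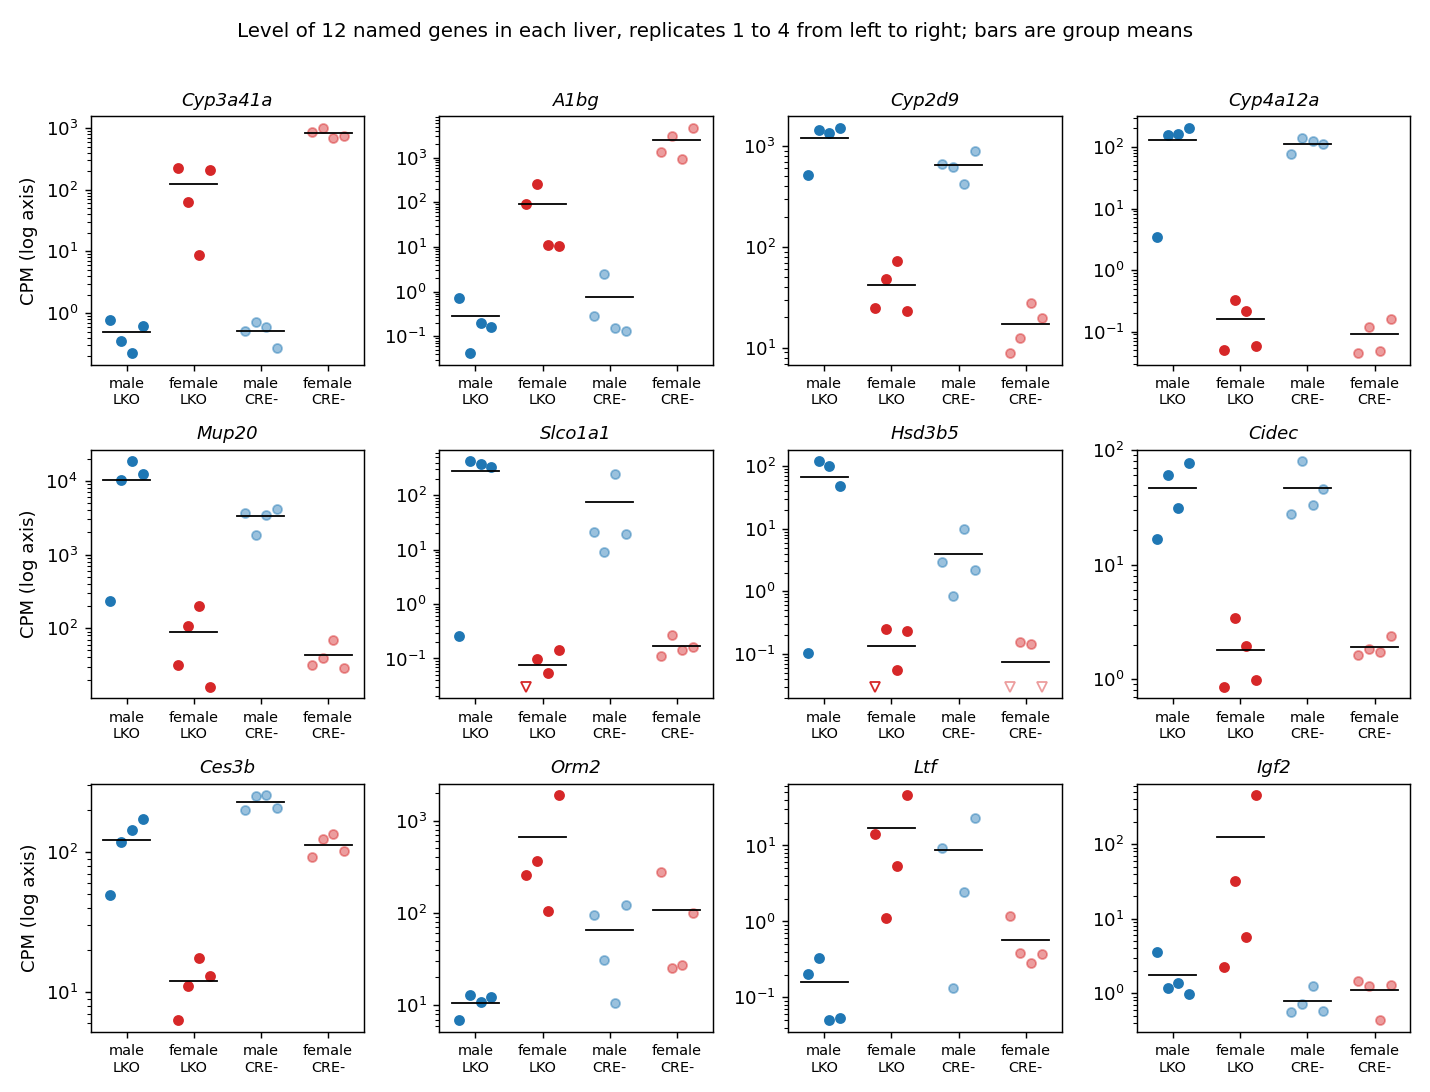
CPM on a log axis for 12 of the named genes in each of the 16 livers, with the group mean as a bar and open triangles at the bottom for libraries below 0.03 CPM. Male LKO replicate 1, the leftmost blue point of each panel, lies apart from the other LKO males for Cyp4a12a, Mup20, Slco1a1 and Hsd3b5.

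Genes of growth hormone signalling, which controls this programme, had fold changes of both signs. None of 15 genes passed edgeR's test (median 0.19, CRE- 0.29), 6 had an unadjusted p under 0.05, DESeq2 called 5 and limma-voom 6. Ghr, the growth hormone receptor, stood at 193, 444, 396 and 376 in males and 128, 246, 206 and 158 in females. Male replicate 1 was within the female range and the other males above it, with a log2 change of -0.93 ± 0.25 (adjusted p = 0.0793) and of -1.12 without male replicate 1 (adjusted p = 0.0138). Igf1, the main liver product induced by growth hormone, held 259.6 to 414 in males and 276 to 605 in females, and the sexes overlapped (log2 change 0.19 ± 0.25, adjusted p = 0.744). The repressors Cux2 and Bcl6, named after their values were seen, were called higher and lower without male replicate 1. Of 16 nuclear receptors tested none passed (median -0.33, CRE- 0.00), 5 had an unadjusted p under 0.05, DESeq2 called 3 and limma-voom 3, and edgeR 1 without female replicate 2. Nr0b2, a repressor of bile acid synthesis, stood at 72.3, 32.0, 66.04 and 32.0 in males and 17.3, 7.70, 21.4 and 26.6 in females, with every female below every male and a log2 change of -1.47 ± 0.38 (adjusted p = 0.0756). Hnf4a, a regulator of hepatocyte identity, held 499 to 619.6 in males and 403 to 586 in females (log2 change -0.15 ± 0.18, adjusted p = 0.729).

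Some esterases and oxidases of drug metabolism were lower in LKO females. Ces3b, a carboxylesterase of the endoplasmic reticulum, stood at 49.3, 117, 145 and 173 in males and 6.29, 11.1, 17.7 and 12.99 in females, a log2 change of -3.33 ± 0.35 (adjusted p = 6.95e-05). Values were 198 to 256 in male and 92.6 to 134 in female CRE- livers, a log2 difference of -1.01 (adjusted p = 0.194) with an interaction adjusted p of 0.135. Ces3a stood at 115, 1409, 1386 and 1583 in males and 33.1, 130.04, 137 and 123 in females, a log2 change of -3.41 ± 0.59 (adjusted p = 0.0101). Male replicate 1 lay among the females for Ces3a. Ces2a stood at 469, 389, 441 and 459.7 in males and 127, 247, 173 and 209 in females, a log2 change of -1.22 ± 0.22 (adjusted p = 0.0131) and of -0.03 in CRE- livers (adjusted p = 0.963), with an interaction adjusted p of 0.163. Ces2a was highest in male replicate 1, unlike Ces3a. Aox3, an aldehyde oxidase, stood at 268, 595, 551 and 453 in males and 140.0, 209, 253 and 141 in females, a log2 change of -1.33 ± 0.30 (adjusted p = 0.044), again without overlap. Of 47 phase I genes 0 were higher and 5 lower (median -0.52, CRE- 0.21), and without male replicate 1, 2 were higher and 10 lower. With 1 LKO library left out the calls ran from 2 without male replicate 4 to 12 without male replicate 1. Cyp2e1, which oxidises ethanol, was the most abundant member and held 4486 to 9901 in males and 1378 to 6138 in females (log2 change -1.02 ± 0.45, adjusted p = 0.254). Ces3b and Ces3a kept their calls in every leave-out. Ces2a (adjusted p up to 0.0517) lost the call without male replicate 4. Aox3 (adjusted p up to 0.191) lost the call without male replicates 2, 3 or 4 or female replicates 1 or 4.

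Conjugating enzymes gave lower calls only, and transporters gave calls in both directions. Sult2a8, a sulfotransferase of bile acids, stood at 93.5, 894, 643 and 713 in males and 13.1, 33.5, 71.4 and 1.74 in females, a log2 change of -4.29 ± 0.84 (adjusted p = 0.0229). Ugt1a6b, which attaches glucuronic acid to phenols, stood at 45.5, 49.1, 46.2 and 39.4 in males and 29.7, 26.4, 27.3 and 22.5 in females, a log2 change of -0.77 ± 0.18 (adjusted p = 0.0495). All males were above all females for both genes, and male replicate 1 was low for Sult2a8 alone. These were the 2 called among 46 phase II genes, with 0 higher (median -0.55, CRE- 0.39). Gstm1, the most abundant of them, held 2118 to 6647 in males and 843 to 3291 in females (log2 change -0.66 ± 0.43, adjusted p = 0.455). Slco1a1, an organic anion carrier of the male liver, stood at 0.257, 422, 383 and 330.0 in males and 0, 0.0997, 0.0549 and 0.145 in females, a log2 change of -11.89 ± 1.88 (adjusted p = 0.00573). In male replicate 1 it was near the females and more than 3 orders of magnitude below the other males. Slc22a28 stood at 0.746, 10.1, 8.45 and 9.24 in males and 0.478, 1.07, 0.988 and 0.781 in females, a log2 change of -3.10 ± 0.56 (adjusted p = 0.0125), with male replicate 1 among the females. Abcg2, an efflux pump, stood at 67.3, 90.7, 84.1 and 82.8 in males and 38.0, 45.6, 43.7 and 19.4 in females, a log2 change of -1.15 ± 0.24 (adjusted p = 0.0287). Slc22a26 went the other way, at 42.7, 5.10, 2.48 and 8.43 in males and 241, 256, 162 and 177 in females, a log2 change of 3.83 ± 0.75 (adjusted p = 0.0229), and of 5.30 without male replicate 1 (adjusted p = 1.60e-04). Its highest male value, in replicate 1, was below every female. In all 1 of 22 transporters was higher and 3 were lower (median -0.44, CRE- 0.01), and 4 and 5 without male replicate 1. Slco1b2, the most abundant transporter, held 921 to 1255 in males and 487 to 792 in females (log2 change -0.70 ± 0.23, adjusted p = 0.129). Leaving out 1 LKO library, the calls ran from 0 without male replicate 2 to 8 without female replicate 2 for conjugation and from 1 without male replicate 2 to 9 without male replicate 1 for transport. Slco1a1 kept its call in every leave-out. Sult2a8 (adjusted p up to 0.0795) and Abcg2 (adjusted p up to 0.0993) lost their calls without male replicates 2, 3 or 4 or female replicate 1. Ugt1a6b (adjusted p up to 0.171) lost the call without male replicates 1, 2, 3 or 4 or female replicates 1, 3 or 4. Slc22a28 (adjusted p up to 0.0557) lost the call without male replicate 2. Slc22a26 (adjusted p up to 0.0943) lost the call without male replicates 2, 3 or 4.

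Some steroid enzymes were lower too. Hsd3b5, a ketosteroid reductase, stood at 0.103, 119, 99.7 and 47.5 in males and 0, 0.249, 0.0549 and 0.231 in females, a log2 change of -8.997 ± 1.499 (adjusted p = 0.00781). Male replicate 1 lay among the females. Hsd3b2 stood at 9.03, 40.0, 32.1 and 27.5 in males and 1.64, 10.7, 7.55 and 4.22 in females, a log2 change of -2.17 ± 0.48 (adjusted p = 0.0377), and male replicate 1 was again within the female range. With Cyp7b1 these made 3 lower and 0 higher among 19 genes of steroid metabolism (median -0.63, CRE- 0.23). Akr1c6, which reduces steroids and was the most abundant of them, held 996 to 1540.4 in males and 336 to 1175 in females (log2 change -0.64 ± 0.33, adjusted p = 0.327). With 1 LKO library left out the calls ran from 2 without male replicate 2 to 6 without male replicate 1, 2 of these higher. Hsd3b5 kept its call in every leave-out. Hsd3b2 (adjusted p up to 0.155) lost the call without male replicates 2, 3 or 4 or female replicates 1, 3 or 4.

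Some lipid genes were lower in LKO females. Cidec, which fuses lipid droplets, stood at 16.7, 60.3, 31.2 and 77.6 in males and 0.856, 3.39, 1.96 and 0.983 in females, a log2 change of -4.68 ± 0.54 (adjusted p = 1.93e-04) and of -4.62 in CRE- livers (adjusted p = 1.67e-04). Its relative Cidea stood at 0.103, 25.4, 14.1 and 43.7 in males and 0, 0.0997, 0.0366 and 0 in females, a log2 change of -9.09 ± 1.47 (adjusted p = 0.00633) and of -9.49 without male replicate 1 (adjusted p = 4.22e-05). Cidec was lowest among males in replicate 1, where Cidea was nearly level with female replicate 2. These were 2 of 20 lipid droplet genes, with 0 higher (median -0.40, CRE- 0.07, 3 calls without male replicate 1). Plin2, a coat protein of the droplet, held 344 to 799 in males and 259 to 629.6 in females (log2 change -0.21 ± 0.30, adjusted p = 0.787). Elovl3, an elongase of very long fatty acids, stood at 3.14, 43.2, 153 and 70.04 in males and 2.42, 0.199, 4.94 and 0.289 in females, a log2 change of -5.07 ± 1.05 (adjusted p = 0.0288), with male replicate 1 among the females. Lipogenesis held no other call among 23 genes (median -0.39, CRE- -0.27, 3 calls without female replicate 2). Scd1, the stearoyl-CoA desaturase, stood at 3275, 5136, 5167 and 4539 in males and 1935, 3239, 2891 and 3766 in females, overlapping between the sexes (log2 change -0.61 ± 0.30, adjusted p = 0.302). Cidec and Cidea kept their calls in every leave-out. Elovl3 (adjusted p up to 0.0845) lost the call without male replicates 2, 3 or 4 or female replicates 1 or 4.

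Fatty acid oxidation had 1 called gene of 28 (median -0.43, CRE- 0.24). That gene, Cyp4a31, a fatty acid omega-hydroxylase, stood at 14.3, 6.33, 8.67 and 13.02 in males and 17.4, 47.1, 25.9 and 31.6 in females, a log2 change of 1.53 ± 0.35 (adjusted p = 0.0457), with every female above every male. Fabp1, the fatty acid carrier of hepatocytes, stood at 1981, 3855, 3024 and 5232 in males and 458, 2882, 2962 and 659 in females (log2 change -1.02 ± 0.52, adjusted p = 0.314), with female replicates 1 and 4 lowest. Bile acid synthesis had 1 called of 18, Cyp7b1 (median -0.39, CRE- 0.24, 4 calls without female replicate 2 and 2 without male replicate 1). Scp2, a peroxisomal sterol carrier and thiolase, stood at 1514, 3049, 3014 and 3006 in males and 938, 1659.7, 1351 and 949.5 in females. Male replicate 1 lay within the female range and the other males were nearly alike, with a log2 change of -1.11 ± 0.27 (adjusted p = 0.0569) and of -1.29 without male replicate 1 (adjusted p = 0.0116). Among 23 genes of cholesterol synthesis and uptake none passed edgeR's test (median 0.66, CRE- 0.59), 10 had an unadjusted p under 0.05, DESeq2 called 3 and limma-voom 2, and edgeR 2 without female replicate 2, and 1 without male replicate 1. Hmgcs1, an early enzyme of the pathway, stood at 250.3, 198, 265 and 288 in males and 430.0, 345, 413 and 777 in females, every female above every male (log2 change 0.97 ± 0.24, adjusted p = 0.0651). None of 24 genes of apolipoproteins and lipoprotein handling passed (median -0.13, CRE- 0.30), 4 had an unadjusted p under 0.05, DESeq2 called 1 and limma-voom 3, and edgeR 1 without female replicate 2. Lpl, the lipase of lipoproteins, stood at 52.9, 26.1, 85.9 and 37.3 in males and 466, 107, 114 and 548 in females, with female replicates 1 and 4 highest and no overlap (log2 change 2.61 ± 0.69, adjusted p = 0.078). Apoe, the most abundant member, held 13871 to 19485 in males and 6432 to 17046 in females (log2 change -0.53 ± 0.29, adjusted p = 0.356). Cyp4a31 (adjusted p up to 0.191) lost the call without male replicates 2, 3 or 4 or female replicates 2, 3 or 4.

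Genes of the pathways that glucagon is known to drive were not called with all 8 LKO livers. None of 23 genes of gluconeogenesis and glycogen passed edgeR's test (median -0.47, CRE- -0.04), 11 had an unadjusted p under 0.05, DESeq2 called 3 and limma-voom 4, and edgeR 5 without female replicate 2. Pygl, glycogen phosphorylase, stood at 379, 631, 562 and 551 in males and 219, 333, 382 and 207 in females, a log2 change of -0.90 ± 0.23 (adjusted p = 0.0715) and of -1.01 without male replicate 1 (adjusted p = 0.0335). Of 44 genes of amino acid catabolism none passed (median -0.05, CRE- 0.38), 8 had an unadjusted p under 0.05, DESeq2 called 0 and limma-voom 2, and edgeR 2 without female replicate 2. Gpt2, alanine transaminase, held 251 to 464 in males and 166 to 299 in females (log2 change -0.72 ± 0.24, adjusted p = 0.131), and Mat1a, which makes S-adenosylmethionine, 2264 to 2979.8 in males and 1686 to 3213 in females (log2 change -0.11 ± 0.23, adjusted p = 0.863). In the urea cycle none of 8 autosomal genes passed (median 0.10, CRE- 0.27), 0 had an unadjusted p under 0.05, DESeq2 called 0 and limma-voom 0. Ass1 stood at 991, 1010.0, 1917 and 1004 in males and 676, 3287, 1116 and 1717 in females (log2 change 0.47 ± 0.39, adjusted p = 0.589), female replicate 2 highest and female replicate 1 lowest, and Slc7a2, an arginine carrier, held 171 to 347 in males and 226 to 687 in females (log2 change 0.45 ± 0.37, adjusted p = 0.579). Among 14 amino acid transporters none passed (median 0.60, CRE- -0.09), 6 had an unadjusted p under 0.05, DESeq2 called 4 and limma-voom 2, and edgeR 3 without female replicate 2. Slc6a9, a glycine carrier, stood at 68.8, 89.8, 60.0 and 88.1 in males and 39.6, 56.2, 41.8 and 19.8 in females, every female below every male (log2 change -0.96 ± 0.27, adjusted p = 0.0931), and Slc38a3, a glutamine carrier, held 774 to 1259 in males and 519 to 1542 in females (log2 change 0.01 ± 0.30, adjusted p = 0.989).

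Stress programmes were likewise without calls with all 8 livers. In the integrated stress response none of 29 genes passed (median -0.42, CRE- 0.19), 10 had an unadjusted p under 0.05, DESeq2 called 4 and limma-voom 1. Phgdh, which begins serine synthesis, stood at 32.98, 18.6, 12.6 and 9.29 in males and 4.78, 6.63, 8.93 and 3.88 in females. Every female was below every male, male replicate 1 was highest, and the log2 fold change of -1.60 ± 0.40 (adjusted p = 0.0672) missed the threshold. Atf5, the most abundant member, held 579 to 807 in males and 378 to 648 in females (log2 change -0.46 ± 0.20, adjusted p = 0.238). Of 20 genes of the unfolded protein response none passed (median -0.05, CRE- 0.16), 2 had an unadjusted p under 0.05, DESeq2 called 0 and limma-voom 0. Herpud1, of protein disposal in the endoplasmic reticulum, held 369 to 552 in males and 155 to 317 in females (log2 change -0.81 ± 0.27, adjusted p = 0.132), and Calr, a chaperone, 456 to 979.5 in males and 664 to 1083 in females (log2 change 0.11 ± 0.25, adjusted p = 0.87). Among 17 antioxidant genes of NRF2 none passed (median -0.23, CRE- 0.02), 4 had an unadjusted p under 0.05, DESeq2 called 2 and limma-voom 0, and edgeR 2 without female replicate 2. Its median was 0.09 without male replicate 1, when 1 gene was called higher. Gclc, of glutathione synthesis, held 238 to 454 in males and 101 to 257 in females (log2 change -0.998 ± 0.30, adjusted p = 0.101).

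Genes for the energy and protein machinery did not pass the test, and their medians lay on opposite sides of 0 in LKO and CRE- livers. None of 71 autosomal subunits of oxidative phosphorylation passed (median -0.28, CRE- 0.48), 1 had an unadjusted p under 0.05, DESeq2 called 0 and limma-voom 0. The interaction had an unadjusted p under 0.05 in 19 of them. Summed levels were 10854, 12429, 11055 and 13352 in males and 5109, 13533, 10976 and 9807 in females. Female replicate 1 was the lowest LKO female in all 4 lists and male replicate 3 the lowest CRE- male, at 6528 against 9422 to 13280.4 for oxidative phosphorylation. Sdha, of respiratory complex II, held 355 to 491 in males and 264 to 441 in females (log2 change -0.44 ± 0.21, adjusted p = 0.279), and Atp5f1b, of ATP synthase, 983 to 1089 in males and 638 to 1342 in females (log2 change -0.12 ± 0.23, adjusted p = 0.832). Of 78 mitochondrial ribosomal proteins none passed (median -0.26, CRE- 0.35), 6 had an unadjusted p under 0.05, DESeq2 called 0 and limma-voom 0. Mrpl9 held 44.1 to 52.3 in males and 28.5 to 43.2 in females (log2 change -0.44 ± 0.17, adjusted p = 0.193) and Mrpl12 97.5 to 148 in males and 52.6 to 133 in females (log2 change -0.31 ± 0.28, adjusted p = 0.626). Of 76 cytosolic ribosomal proteins none passed (median -0.15, CRE- 0.52, and 0.03 without male replicate 1), 1 had an unadjusted p under 0.05, DESeq2 called 1 and limma-voom 0, and edgeR 1 without female replicate 3. Rps4l held 8.70 to 16.5 in males and 1.81 to 9.48 in females (log2 change -1.44 ± 0.45, adjusted p = 0.112) and Rps2 716 to 863 in males and 479 to 792 in females (log2 change -0.22 ± 0.24, adjusted p = 0.687). Of 37 proteasome subunits none passed (median -0.15, CRE- 0.29), 0 had an unadjusted p under 0.05, DESeq2 called 0 and limma-voom 0. Psma4 held 142 to 164 in males and 75.6 to 137 in females (log2 change -0.37 ± 0.21, adjusted p = 0.367) and Psmd2 141 to 182 in males and 149.6 to 187 in females (log2 change 0.03 ± 0.15, adjusted p = 0.949).

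Some acute-phase proteins, many of which hepatocytes secrete in inflammation, were higher in LKO females. Orm2, an orosomucoid, stood at 6.84, 12.9, 10.8 and 12.2 in males and 259, 369, 105 and 1904 in females, a log2 change of 5.95 ± 1.08 (adjusted p = 0.0128). Orm1 stood at 59.2, 115, 225 and 419 in males and 1167, 999, 629 and 3188 in females, a log2 change of 2.87 ± 0.58 (adjusted p = 0.026). Every female was above every male for both, and female replicate 4 was far above the others. Fgl1, a secreted relative of fibrinogen, stood at 294, 321, 249 and 518 in males and 1329, 1106, 1251 and 1656 in females, a log2 change of 1.95 ± 0.34 (adjusted p = 0.0107). Hpx, hemopexin, which binds heme and was the most abundant member, stood at 3985, 3292, 3534 and 3017 in males and 9532, 7932, 4890.2 and 17476 in females, a log2 change of 1.53 ± 0.35 (adjusted p = 0.0437). Mt2, a metallothionein, stood at 17.6, 8.70, 4.22 and 6.16 in males and 51.6, 95.1, 58.1 and 426 in females, a log2 change of 4.10 ± 0.88 (adjusted p = 0.0328). The sexes did not overlap for Fgl1, Hpx or Mt2. In all 7 of 28 were higher and 0 lower (median 1.49, CRE- 0.57), 23 had an unadjusted p under 0.05, and without male replicate 1 7 were called (median 1.51). The interaction had an unadjusted p under 0.05 in 9 of the 28. Summed levels were 22858.7 to 27330.9 in males and 58076.8, 36046, 37139.5 and 78149.8 in females. CRE- males held 26940.4 to 38045.1 and CRE- females 27028.1 to 64627.5. The highest CRE- female, replicate 1, was above LKO female replicates 1, 2 and 3. CRE- livers overlapped between the sexes for Orm2, at 10.6 to 122 in male and 25.5 to 278 in female CRE- livers, with an interaction adjusted p of 0.148. Left out 1 at a time, the LKO libraries gave calls from 0 without male replicate 2 to 15 without female replicate 2. Orm2 (adjusted p up to 0.0724) lost the call without male replicates 2, 3 or 4. Orm1 (adjusted p up to 0.121) lost the call without male replicates 2 or 3 or female replicate 4. Fgl1 (adjusted p up to 0.0609) lost the call without male replicate 2. Hpx (adjusted p up to 0.181) lost the call without male replicates 2, 3 or 4 or female replicates 1 or 4. Mt2 (adjusted p up to 0.138) lost the call without male replicates 2, 3 or 4 or female replicate 4.

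Other secreted proteins gave single calls. C3, the central complement component, stood at 6652, 5020.0, 6613 and 5545 in males and 19005, 12244, 10414 and 16560.2 in females, a log2 change of 1.29 ± 0.26 (adjusted p = 0.0267), with every female above every male. Of 26 complement genes it was the only call (median 0.19, CRE- -0.12, 3 calls without male replicate 1, 2 of them lower). Trf, which carries iron in plasma, stood at 12445, 10983, 12987 and 10379 in males and 27643, 23200.3, 14934 and 49969 in females, also without overlap (log2 change 1.31 ± 0.31, adjusted p = 0.0566). Of 18 genes of iron handling none passed (median 0.22, CRE- 0.24), 6 had an unadjusted p under 0.05, DESeq2 called 2 and limma-voom 1, and edgeR 1 without female replicate 2. Of 23 coagulation genes none passed (median 0.18, CRE- 0.41), 7 had an unadjusted p under 0.05, DESeq2 called 1 and limma-voom 2. Proc, protein C, held 449.6 to 593 in males and 295 to 471 in females (log2 change -0.53 ± 0.18, adjusted p = 0.134), and Fgb, of fibrinogen, 3528 to 5065 in males and 4317 to 7781 in females (log2 change 0.56 ± 0.28, adjusted p = 0.307). Serpina12, a secreted serpin also called vaspin, stood at 19.5, 44.2, 62.2 and 71.6 in males and 11.3, 4.84, 13.6 and 15.5 in females, a log2 change of -2.13 ± 0.47 (adjusted p = 0.0377) and of -2.09 in CRE- livers (adjusted p = 0.0417). Of 19 genes of the serpin A family only this was called (median 0.23, CRE- -0.05, 3 calls without male replicate 1), whose near-identical members lose reads that fit several genes. Serpina1b, the most abundant, held 2879 to 4439 in males and 2108 to 4057 in females (log2 change -0.32 ± 0.24, adjusted p = 0.534). C3 (adjusted p up to 0.13) lost the call without male replicates 2, 3 or 4 or female replicates 1 or 4. Serpina12 (adjusted p up to 0.145) lost the call without male replicates 2, 3 or 4 or female replicates 1, 3 or 4.

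Some neutrophil genes were higher in LKO females. Ltf, the granule protein lactoferrin, stood at 0.206, 0.333, 0.0497 and 0.0540 in males and 14.1, 1.10, 5.32 and 46.4 in females, a log2 change of 6.63 ± 1.37 (adjusted p = 0.0288). Ngp, another granule protein, stood at 0.386, 0.375, 0.298 and 0.108 in males and 14.4, 1.45, 8.69 and 96.1 in females, a log2 change of 6.66 ± 1.43 (adjusted p = 0.0338). Mpo, myeloperoxidase, stood at 0.103, 0.333, 0.298 and 0.0540 in males and 17.5, 0.399, 4.94 and 39.0 in females, a log2 change of 6.24 ± 1.36 (adjusted p = 0.0347). Female replicate 4 was highest and female replicate 2 lowest of the females for each, and all females were above all males. The margin was small for Mpo, at 0.399 in female replicate 2 against 0.333 in male replicate 2. Mmp8, a collagenase, stood at 0.309, 0.333, 0.298 and 0.0540 in males and 5.49, 0.898, 1.10 and 10.2 in females, a log2 change of 4.13 ± 0.82 (adjusted p = 0.0245), and Retnlg stood at 1.85, 0.583, 0.696 and 0.918 in males and 6.85, 2.57, 8.58 and 24.6 in females, a log2 change of 3.39 ± 0.71 (adjusted p = 0.0291). The list gave 5 higher and 0 lower of 13 genes tested (median 3.79, and 4.14 without male replicate 1, when 5 were called). In CRE- livers the median was -1.60, and the interaction had an unadjusted p under 0.05 in 11. CRE- males were split, with summed levels of 117, 25.2, 23.04 and 235, against 19.4 to 57.3 in CRE- females. The interaction adjusted p was 0.104 for Ltf, Ngp, Mpo and Mmp8. Summed over 14 markers the level was 31.6, 20.8, 17.4 and 15.99 in males and 174, 52.4, 99.6 and 749.6 in females. S100a9, the most abundant marker, stood at 8.75, 6.70, 5.17 and 3.89 in males and 39.9, 17.6, 24.9 and 258 in females (log2 change 3.79 ± 0.90, adjusted p = 0.0541), and none of the markers was at 0 in all 8 libraries. More cells of a type and more RNA per cell cannot be told apart in bulk tissue, and the part of neutrophils in the acute-phase difference was not tested. Left out in turn, the LKO libraries gave calls from 0 without male replicate 2 to 10 without female replicate 2. Ltf (adjusted p up to 0.123), Ngp (adjusted p up to 0.139), Mmp8 (adjusted p up to 0.0943) and Retnlg (adjusted p up to 0.136) lost their calls without male replicates 2, 3 or 4 or female replicate 4. Mpo (adjusted p up to 0.141) lost the call without male replicates 1, 2, 3 or 4 or female replicates 1 or 4.

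Markers of macrophages leaned the same way without passing edgeR's test. Of 11 autosomal Kupffer cell markers none passed (median 1.29, CRE- 0.13), 9 had an unadjusted p under 0.05, DESeq2 called 4 and limma-voom 6, and edgeR 3 without female replicate 2. Csf1r, the receptor that macrophages need, stood at 137, 92.1, 93.3 and 75.1 in males and 535, 131, 329 and 162 in females. Female replicates 1 and 3 were highest, female replicate 2 lay below male replicate 1, and the log2 fold change was 1.54 ± 0.44 (adjusted p = 0.0944). Cd5l, secreted by Kupffer cells and their most abundant marker, held 175 to 269 in males and 248 to 991 in females (log2 change 1.34 ± 0.48, adjusted p = 0.155). Summed Kupffer markers were 1451, 809, 898 and 828 in males and 4341, 1192, 2735 and 1668 in females. Of 12 markers of recruited and lipid-associated macrophages none passed (median 1.06, CRE- -0.48), 5 had an unadjusted p under 0.05, DESeq2 called 4 and limma-voom 5, while Trem2 and Itgam, named after their values were seen, were called higher without male replicate 1. Fabp5, a lipid carrier, stood at 14.6, 12.2, 8.397 and 20.5 in males and 26.7, 43.7, 45.3 and 109 in females, every female above every male (log2 change 2.01 ± 0.54, adjusted p = 0.0801). Lyz2, lysozyme, stood at 349.7, 162, 161 and 131 in males and 303, 311, 542 and 455 in females (log2 change 1.002 ± 0.50, adjusted p = 0.31), with male replicate 1 among the females.

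Lymphocyte and immune pathway lists held no call with all 8 livers. Of 21 T and NK cell markers none passed (median 0.66, CRE- 0.34), 1 had an unadjusted p under 0.05, DESeq2 called 1 and limma-voom 1. Gzma, a protease of killer cells, stood at 1.80, 0.666, 0.497 and 0.432 in males and 7.30, 1.55, 4.17 and 6.28 in females, a log2 change of 2.50 ± 0.72 (adjusted p = 0.0937) and of 3.18 without male replicate 1 (adjusted p = 0.0468), and Il2rb held 3.40 to 5.50 in males and 3.24 to 12.3 in females (log2 change 0.91 ± 0.44, adjusted p = 0.289). Of 15 B and plasma cell markers none passed (median 0.39, CRE- -0.11), 2 had an unadjusted p under 0.05, DESeq2 called 0 and limma-voom 0. Ighm held 126 to 303 in males and 118 to 361 in females (log2 change -0.13 ± 0.42, adjusted p = 0.91) and Cd22 3.67 to 6.51 in males and 4.28 to 28.6 in females (log2 change 1.25 ± 0.52, adjusted p = 0.217). Of 43 interferon-stimulated genes none passed (median 0.42, CRE- 0.04), 9 had an unadjusted p under 0.05, DESeq2 called 1 and limma-voom 0. Oas3, a sensor of double-stranded RNA, stood at 2.98, 1.81, 3.03 and 1.78 in males and 27.7, 3.29, 5.51 and 3.24 in females, with female replicate 1 far above the rest (log2 change 2.05 ± 0.65, adjusted p = 0.119), and Iigp1 held 285 to 424 in males and 224 to 337 in females (log2 change -0.29 ± 0.21, adjusted p = 0.494). Of 25 NFkB targets none passed (median 0.96, CRE- -0.01), 12 had an unadjusted p under 0.05, DESeq2 called 5 and limma-voom 2, and edgeR 3 without female replicate 2. Vcam1, an adhesion molecule, stood at 45.5, 26.5, 18.7 and 20.4 in males and 541, 26.8, 52.2 and 56.2 in females, again highest in female replicate 1 (log2 change 2.61 ± 0.74, adjusted p = 0.092), and Sod2 held 176 to 212 in males and 134 to 189 in females (log2 change -0.29 ± 0.18, adjusted p = 0.419). Of 9 cGAS-STING genes none passed (median 0.99, CRE- 0.09), 7 had an unadjusted p under 0.05, DESeq2 called 1 and limma-voom 2. Cgas, the DNA sensor, stood at 0.463, 0.333, 0.298 and 0.810 in males and 3.42, 0.798, 1.35 and 0.579 in females (log2 change 1.69 ± 0.57, adjusted p = 0.137), and Irf3 held 54.6 to 68.7 in males and 38.0 to 51.1 in females (log2 change -0.38 ± 0.16, adjusted p = 0.211). Of 17 genes of MHC antigen presentation none passed (median 0.46, CRE- -0.11), 1 had an unadjusted p under 0.05, DESeq2 called 0 and limma-voom 0. Tapbp held 97.9 to 153 in males and 153 to 206 in females (log2 change 0.55 ± 0.21, adjusted p = 0.179) and B2m 1572 to 1815 in males and 912 to 1904 in females (log2 change -0.25 ± 0.29, adjusted p = 0.707).

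Among the structural cells, endothelium gave a call. Vwf, which vessels secrete for clotting, stood at 10.3, 10.04, 10.2 and 9.08 in males and 34.99, 20.5, 14.2 and 43.1 in females, a log2 change of 1.51 ± 0.29 (adjusted p = 0.0179), with the 4 males nearly alike and below every female. CRE- livers overlapped, at 12.5 to 22.1 in male and 11.7 to 15.3 in female CRE- livers (interaction adjusted p = 0.135). Of 19 endothelial markers no other was called (median 0.02, CRE- 0.29, 3 calls without female replicate 2), and Eng, the most abundant, held 79.3 to 88.0 in males and 64.3 to 108 in females (log2 change 0.02 ± 0.20, adjusted p = 0.973). Of 28 genes of stellate cells, fibroblasts and collagen none passed (median 0.75, CRE- -0.20), 13 had an unadjusted p under 0.05, DESeq2 called 4 and limma-voom 5, and edgeR 2 without female replicate 2. Acta2, the actin of activated stellate cells, stood at 5.04, 4.21, 3.23 and 3.94 in males and 15.5, 6.83, 5.74 and 12.4 in females, every female above every male, a log2 change of 1.30 ± 0.32 (adjusted p = 0.0618) and of 1.42 without male replicate 1 (adjusted p = 0.0492). Dcn, the most abundant member, held 149.8 to 268 in males and 113 to 232 in females (log2 change -0.17 ± 0.26, adjusted p = 0.792). Of 11 markers of cholangiocytes and progenitors none passed (median 0.30, CRE- 0.17), 1 had an unadjusted p under 0.05, DESeq2 called 1 and limma-voom 1. Cd24a stood at 7.15, 5.08, 5.81 and 5.56 in males and 16.2, 12.1, 13.4 and 9.43 in females, again without overlap (log2 change 1.11 ± 0.29, adjusted p = 0.0699), and Spp1 held 64.5 to 80.2 in males and 49.7 to 131 in females (log2 change 0.30 ± 0.33, adjusted p = 0.692). Vwf (adjusted p up to 0.079) lost the call without male replicates 2, 3 or 4 or female replicate 4.

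Erythroid, muscle, pancreatic and fat markers were checked as signs of other tissue. Slc4a1, the anion exchanger of red cells, stood at 0.0514, 0.292, 0.348 and 0.324 in males and 5.89, 1.70, 0.402 and 4.28 in females, a log2 change of 3.57 ± 0.74 (adjusted p = 0.0291), with every female above every male. No other of 7 erythroid markers was called (median 1.49, CRE- -0.17, 2 calls without female replicate 3), all 7 had an unadjusted p under 0.05 in LKO livers and in the interaction, DESeq2 called 6 and limma-voom 0. In LKO livers 6 of the 7 had a log2 fold change above 0, while Klf1 went the other way at -0.81. Hbb-bs, a globin, stood at 94.8, 147, 115 and 195 in males and 162, 389, 127 and 872 in females (log2 change 1.49 ± 0.47, adjusted p = 0.118). Skeletal muscle markers summed to 1.72, 0.895, 122 and 71.9 in males and 1.36, 13.7, 1.83 and 1.56 in females, so male replicates 3 and 4 were highest. None of 6 passed (median -3.76, CRE- 4.45), 5 had an unadjusted p under 0.05, DESeq2 called 1 and limma-voom 0, Acta1 standing at 0.154, 0, 38.2 and 30.6 in males and 0.101, 3.99, 0.695 and 0.463 in females (log2 change -3.71 ± 1.75, adjusted p = 0.278) and Mylpf at 1.44, 0.750, 10.04 and 6.27 in males and 0.906, 2.09, 0.695 and 1.10 in females (log2 change -1.95 ± 0.62, adjusted p = 0.118). Of 10 pancreatic acinar markers 2 were tested and none passed (median 0.03, CRE- 1.66), 0 had an unadjusted p under 0.05, DESeq2 called 0 and limma-voom 0. Cela1 made up 91.5% of their sum and held 9.83 to 28.2 in males and 6.80 to 11.02 in females (log2 change -0.88 ± 0.80, adjusted p = 0.622). Fat cell markers summed to 328, 5266, 3238 and 3448 in males and 145, 930.5, 1061 and 154 in females, 97.2% of it Car3, a carbonic anhydrase that hepatocytes express too. Car3 stood at 319, 5157, 3218 and 3339 in males and 137, 895, 1053 and 45.04 in females, with male replicate 1 among the females (log2 change -2.50 ± 0.81, adjusted p = 0.125). None of 7 fat cell markers passed (median 0.16, CRE- 1.52), 4 had an unadjusted p under 0.05, DESeq2 called 1 and limma-voom 0, and edgeR 1 without female replicate 2. The part of these tissues in the sex differences was not tested. Slc4a1 (adjusted p up to 0.112) lost the call without male replicates 2, 3 or 4 or female replicates 1 or 4.

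Of the cell cycle genes, 2 were higher in LKO females. Cdk1, the mitotic kinase, stood at 2.14, 0.958, 1.29 and 0.972 in males and 5.64, 3.39, 5.54 and 4.63 in females, a log2 change of 1.84 ± 0.39 (adjusted p = 0.0317). Kif11, a motor of the spindle, stood at 1.18, 0.833, 1.64 and 0.810 in males and 8.38, 1.75, 3.22 and 3.30 in females, a log2 change of 1.90 ± 0.44 (adjusted p = 0.049). The sexes did not overlap for either gene, and male replicate 1 was the highest male for Cdk1. Of 35 genes tested 0 were lower (median 1.49, CRE- -0.11), 29 had an unadjusted p under 0.05, and 6 were called without male replicate 1. DESeq2 called 18 and limma-voom 16. Summed levels were 332, 189.7, 161 and 166 in males and 605, 279, 404 and 307 in females, in the same order of females as the Kupffer markers, whose part was not tested. Ccnd1, cyclin D1 and the most abundant member, stood at 202, 78.3, 40.0 and 62.1 in males and 217, 145, 189 and 109 in females, a log2 change of 0.79 ± 0.41 (adjusted p = 0.333) and of 1.47 without male replicate 1 (adjusted p = 0.0379). In male replicate 1 it lay between the 2 highest females. Leaving out LKO libraries 1 at a time gave calls from 0 without male replicate 2 to 17 without female replicate 2. Cdk1 (adjusted p up to 0.146) lost the call without male replicates 2, 3 or 4 or female replicates 1, 3 or 4. Kif11 (adjusted p up to 0.202) lost the call without male replicates 1, 2, 3 or 4 or female replicates 1, 3 or 4.

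Some growth and tumour-related genes were high in female replicate 4. Igf2, a fetal growth factor, stood at 3.60, 1.17, 1.39 and 0.972 in males and 2.22, 32.5, 5.67 and 458 in females, a log2 change of 6.13 ± 1.28 (adjusted p = 0.0291). Female replicate 1 lay within the male range. Ly6d, a surface protein, stood at 6.64, 2.50, 6.86 and 6.97 in males and 17.02, 27.4, 35.01 and 240.0 in females, a log2 change of 3.80 ± 0.71 (adjusted p = 0.017), with every female above every male. H19, the noncoding RNA beside Igf2, stood at 24.7, 2.29, 48.5 and 6.43 in males and 6.62, 150.3, 71.8 and 1775 in females (log2 change 4.61 ± 1.38, adjusted p = 0.103), overlapping between the sexes. Igf2 and Ly6d were the 2 called of 10 oncofetal and tumour genes (median 1.87, CRE- 0.37). Tnfrsf10b, a death receptor and p53 target, stood at 0.489, 0.4997, 0.547 and 0.270 in males and 1.36, 1.20, 1.83 and 2.55 in females, a log2 change of 1.93 ± 0.42 (adjusted p = 0.034), without overlap. Of 20 genes of p53 and senescence it alone was called (median 0.51, CRE- 0.07, 2 calls without female replicate 2), and Trp53inp1 held 40.3 to 73.1 in males and 38.7 to 94.9 in females (log2 change 0.22 ± 0.28, adjusted p = 0.747). Klf6, an early response transcription factor, stood at 18.7, 11.8, 13.6 and 11.8 in males and 54.1, 19.1, 22.6 and 53.2 in females, a log2 change of 1.41 ± 0.31 (adjusted p = 0.0382), also without overlap. No other of 21 immediate early genes was called (median 0.40, CRE- 0.05, 2 calls without male replicate 1), and Zfp36 held 54.2 to 137 in males and 43.6 to 92.6 in females (log2 change -0.20 ± 0.31, adjusted p = 0.794). Igf2 (adjusted p up to 0.136) lost the call without male replicates 2, 3 or 4 or female replicate 4. Ly6d (adjusted p up to 0.0838) lost the call without male replicates 2, 3 or 4. Tnfrsf10b (adjusted p up to 0.138) lost the call without male replicates 2, 3 or 4 or female replicates 3 or 4. Klf6 (adjusted p up to 0.162) lost the call without male replicates 2, 3 or 4 or female replicates 1 or 4.

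Zonation and clock genes gave few calls. Slc13a3, a dicarboxylate carrier on the pericentral list, stood at 6.74, 17.8, 12.99 and 14.5 in males and 68.4, 30.8, 31.9 and 202 in females, a log2 change of 2.68 ± 0.58 (adjusted p = 0.0341) and of 2.48 without male replicate 1 (adjusted p = 0.0525). Every female was above every male, female replicate 4 highest. The other pericentral genes, of 17 tested, were not called (median 0.28, CRE- 0.44). Cyp2f2, a periportal P450, stood at 117, 419.6, 691 and 657 in males and 72.3, 223, 89.8 and 92.7 in females, a log2 change of -1.98 ± 0.46 (adjusted p = 0.0454) and of -2.30 without male replicate 1 (adjusted p = 0.00223). Male replicate 1 lay among the females, and no other of 13 periportal genes was called (median 0.47, CRE- 0.34, 2 calls without female replicate 2). Of 19 clock genes none passed (median -0.48, CRE- -0.54), 2 had an unadjusted p under 0.05, DESeq2 called 0 and limma-voom 0. Hlf held 33.7 to 86.6 in males and 20.9 to 52.5 in females (log2 change -0.75 ± 0.33, adjusted p = 0.244), and Tef, of the same family, 46.5 to 219.5 in males and 37.2 to 196 in females (log2 change -0.62 ± 0.54, adjusted p = 0.603). Slc13a3 (adjusted p up to 0.122) lost the call without male replicates 1, 2, 3 or 4 or female replicates 1 or 4. Cyp2f2 (adjusted p up to 0.161) lost the call without male replicates 2, 3 or 4 or female replicates 1, 3 or 4.

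**Figure D3:**
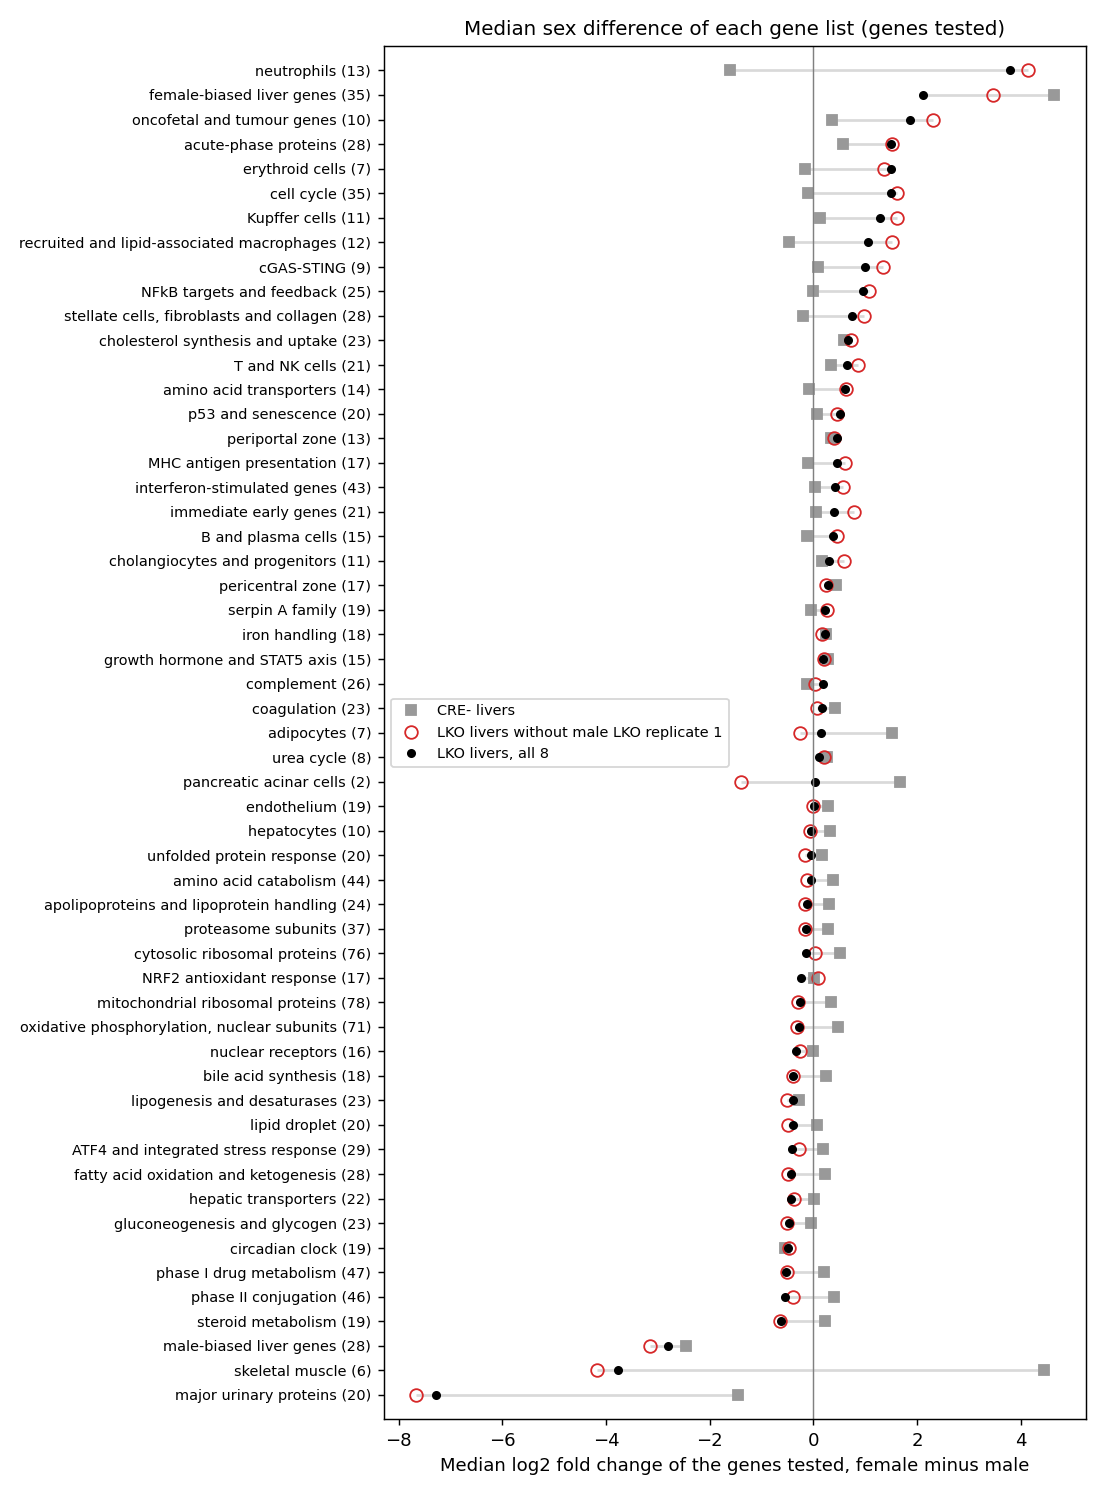
Median log2 fold change (female minus male) of the genes tested in each of the 55 lists, for all 8 LKO livers (black), LKO livers without male replicate 1 (open red) and CRE- livers (grey squares), with the number of genes tested in brackets. Urinary proteins lie at -7.28 in LKO and -1.44 in CRE- livers.

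The genes with the smallest interaction p are shown beside CRE- livers, and none passed. Gm33862, an uncharacterised gene, stood at 0.797, 1.04, 1.22 and 1.62 in males and 3.93, 3.32, 1.04 and 4.43 in females (log2 change 1.44 ± 0.43, adjusted p = 0.103), against -2.10 in CRE- livers (adjusted p = 0.0314), with an interaction adjusted p of 0.104. Sult2a7, a sulfotransferase, stood at 7.90, 38.9, 41.4 and 109 in males and 0.151, 0.299, 3.53 and 0.0579 in females, a log2 change of -5.53 ± 1.20 (adjusted p = 0.0341), against 2.27 in CRE- livers (adjusted p = 0.366), with an interaction adjusted p of 0.135. Female replicate 3 was the highest LKO female and still below every LKO male, whereas CRE- females overlapped CRE- males. Eci3, an enoyl-CoA isomerase, stood at 0.334, 0.458, 0.248 and 0.729 in males and 0.629, 2.59, 1.55 and 0.260 in females (log2 change 1.52 ± 0.58, adjusted p = 0.181), against 6.05 in CRE- livers (adjusted p = 8.41e-05), with an interaction adjusted p of 0.104. The sexes overlapped for Eci3 in LKO livers. Leap2, a secreted peptide that opposes ghrelin, stood at 61.8, 101, 57.3 and 97.1 in males and 13.1, 28.9, 55.9 and 31.0 in females (log2 change -1.30 ± 0.40, adjusted p = 0.109), against 1.62 in CRE- livers (adjusted p = 0.0723), with an interaction adjusted p of 0.122. LKO females were below LKO males for Leap2, and CRE- females were above CRE- males. Sult2a7 (adjusted p up to 0.12) lost the call without male replicates 2, 3 or 4 or female replicates 1 or 4.

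Without male replicate 1, 14 genes passed the interaction test, 5 with the difference in LKO livers shifted towards females (0.0303%) and 9 with it shifted towards males (0.0545%). Of the 9, 6 were urinary protein genes, Mup1, Mup2, Mup11, Mup15, Mup16 and Mup19, and the rest were Ces3b, Cav1 and Cyp4f14. Cav1, which forms caveolae, had the smallest p, with a log2 difference of -3.42 in LKO and -0.14 in CRE- livers (interaction -3.28 ± 0.47, adjusted p = 0.0312). In the other direction were Myc, Ccn2, Rasgef1b and Gm36161 among others. Ccn2, a matrix protein and target of YAP, differed by 2.11 in LKO and -1.21 in CRE- livers (adjusted p = 0.0312), and Myc by 1.59 and -1.08 (adjusted p = 0.045). These genes were chosen for mention after their values were seen, and with all 16 libraries their adjusted p ran from 0.104 to 0.257.

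Chromosome 4, which holds the urinary protein cluster as well as Cyp4a12a, Zfp979 and Zfp992, had 8 higher and 27 lower of 1058 genes tested, or 3.31%. Other autosomes had at most 1.74%.

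Promoters of the called genes were searched for the motif bound by STAT proteins, TTC and GAA with any 3 bases between them, which is its own reverse complement, because growth hormone acts through STAT5. The promoters run from 250 bases before to 50 after the start and come from RefSeq on GRCm38.p6. Of the genes called higher, 62 of 85 matched a promoter, and 6 of their 81 promoters held the motif (7.41%). Of those called lower, 68 of 99 matched, and 7 of 95 promoters held it (7.37%). Among all promoters the share was 8.30%, and among those of autosomal genes tested 7.05%, shares near those of the called genes. In the lists the shares were 11.43% of 35 promoters for female-biased genes, 12% of 25 for male-biased genes and 0% of 14 for urinary proteins. Of the 20 leading genes 15 had a promoter in the table, and A1bg and Pde4b held the motif, in 1 of 1 and 1 of 4. The A1bg promoter, at chr15:60921221-60921520 on the minus strand, is shown because that gene has no other promoter in the table. Capitals mark the motif, and a match is a description of these letters only.
A1bg: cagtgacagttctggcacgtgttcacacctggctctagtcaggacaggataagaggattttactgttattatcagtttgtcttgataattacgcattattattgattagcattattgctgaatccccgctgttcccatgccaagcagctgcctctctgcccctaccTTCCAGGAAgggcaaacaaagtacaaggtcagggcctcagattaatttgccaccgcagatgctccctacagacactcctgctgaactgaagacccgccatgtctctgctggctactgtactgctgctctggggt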

How the data were processed

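The authors aligned paired reads to GRCm39 with STAR 2.7.1a and deposited a count table, each mate a read, made with featureCounts of Subread 2.0.6 by strand, with multi-mapped reads left out, as the submitters' processing notes and the file header state. The table holds 41079 genes, of which edgeR's filterByExpr (minimum count 10) kept 16742, 16212 of them autosomal. A single edgeR 4.0.16 model (R 4.3.3, TMM scaling) held all 16 libraries in 4 groups, and p values of its quasi-likelihood F test were adjusted by Benjamini-Hochberg over the genes kept. LKO and CRE- comparisons therefore share an estimate of spread. Low groups were set to a floor of 3 counts per library, and intervals and floors cover counting error only.

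The genes named are, in each direction, the 10 with the smallest p among those called whose LKO values did not overlap; in each of 55 lists the 4 called members with the smallest p, or the smallest where none was called, and the most abundant; the 5 with the smallest interaction p in each direction; and Gcgr, Xist and Ddx3y. Some genes that these rules pick are not reported here. The lists cover the pathways, protein families, zones and cell types described, and hold 1222 autosomal genes tested. Members and lists were chosen with earlier results of these data known. Alternatives were DESeq2 1.42.0, limma-voom (limma 3.58.1) with sample quality weights, RLE and upper-quartile scaling, other filters and thresholds, a replicate block, each genotype fitted alone, and each library left out. The fits were tested on simulated data. No batch beyond the labels is given. Blots, quantitative PCR, metabolic measures and lifespans were not analysed here.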

Additional observations from a re-analysis of the deposited data

Results flagged for a closer look

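Of the named genes 27 single values lay far from the other 3 of their group. They were found among 290 groups of 4 values tested for named genes and 4 library measures. The cut used flags about 1 in 20 groups by chance if values are normally distributed, which was not tested for these CPM values. The Mup11 group of females held tied values, and the count of 27 cannot be set against that rate. Male replicate 1 accounted for 10. It was low for Cyp2d9 (518 CPM), Cyp7b1 (90.3 CPM), Il1rap (88.2 CPM), Mup21 (6.56 CPM), Ces3a (115 CPM), Scp2 (1514 CPM) and Sdha (355 CPM). It was high for Slc22a26 (42.7 CPM), Lyz2 (349.7 CPM) and Igf2 (3.60 CPM).

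Female replicate 4 accounted for 7, all high: Orm2 (1904 CPM), Mt2 (426 CPM), Ngp (96.1 CPM), S100a9 (258 CPM), Ly6d (240.0 CPM), Igf2 (458 CPM) and H19 (1775 CPM). Female replicate 1 was low for Ces3a (33.1 CPM) and high for Oas3 (27.7 CPM) and Vcam1 (541 CPM). Female replicate 2 was high for Acta1 (3.99 CPM) and Cyp2f2 (223 CPM). Female replicate 3 was high for Mup11 (0.165 CPM) and Sult2a7 (3.53 CPM). Male replicate 2 was low for Ly6d (2.50 CPM), male replicate 3 high for Ass1 (1917 CPM) and male replicate 4 low for Mmp8 (0.0540 CPM). The causes were not tested.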

How the results depend on the processing

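The count of 184 autosomal genes in LKO livers was 1040 with DESeq2, 928 with limma-voom, 102 with at least 10 counts required in every library, 36 at an adjusted p under 0.01 and 11 with the 8 LKO libraries fitted alone, and it ran from 44 to 652 with 1 LKO library left out. The count of 147 in CRE- livers was 495 with DESeq2, 313 with limma-voom, 77 with at least 10 counts in every library, 48 at an adjusted p under 0.01 and 240 with the 8 CRE- libraries fitted alone, and it ran from 62 to 142 with 1 CRE- library left out. The interaction count of 0 was 361 with DESeq2, 29 with limma-voom and 12 with no filter beyond a count above 0, and it ran from 0 to 14 with 1 library left out. Of the listed genes 71 were called, against 209 with DESeq2, 161 with limma-voom, 8 with the LKO libraries alone, and 23 to 159 with 1 LKO library left out. A fit with replicate number as a block gave 496 LKO calls and 132 listed genes. The numbers were not taken to pair the mice: male and female LKO livers of the same number correlated across genes at -0.14 to 0.15 and of other numbers at -0.25 to 0.20, and 1 of 4 males correlated best with its own number. CRE- livers of the same number correlated at 0.03 to 0.33, 3 of 4 males best with their own number, male LKO with male CRE- livers of the same number at -0.01 to 0.17, 3 of 4 best with their own, and female LKO with female CRE- livers at 0.03 to 0.17. The labels name no shared litter or day. Of 141 named autosomal genes, results were weaker for 48 and the same for 89 with the LKO libraries alone, where 4 were not tested, weaker for 14 and stronger for 20 with limma-voom, stronger for 28 with DESeq2, weaker for 2 and stronger for 12 with the block, weaker for 3 with upper-quartile scaling and the same for all with RLE. None of the 62 called changed sign in a setting that tested it, and 15 of the 79 not called did. Where calls changed with a tool or a library, the cause was not tested. Counts of 10 or more in all libraries were found for 12590 autosomal genes, and the rest carry more counting error.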
